A study of Homo sapiens with 2 samples.

Results

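ZEB1, ZEB2, SNAI1, SNAI2, TWIST1, TWIST2, PRRX1 and FOXC2 encode transcription factors that drive epithelial-mesenchymal transition, and VIM and THY1 encode mesenchymal products. These 10 genes were chosen by name, 8 factors and 2 products, and were read from a table of 19029 genes in BT549, a mesenchymal-like line derived from a human breast tumour. One group of BT549 cells overexpressed SNHG15, whose transcript does not code for protein and carries a small nucleolar RNA in an intron. The other group was a vector control, titled pcIp2. Both were grown in the same medium with serum, and each group had 1 RNA-seq library. The labels used here do not say whether the cells were a clone or a pool. With 1 library per group there is no replicate check and no test, and every 95% interval below covers counting error only.

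In this transition, epithelial cells lose their junctions and gain motility, a programme used in development and active in many mesenchymal-like breast cancers. ZEB proteins, which carry zinc fingers and a homeodomain, and SNAI zinc finger proteins bind the E-box CAGGTG in promoters of junction genes and recruit corepressors. TWIST proteins are basic helix-loop-helix factors that work as dimers, PRRX1 is a homeodomain factor of mesenchyme and FOXC2 a forkhead factor. Vimentin forms the intermediate filaments of mesenchymal cells, and THY1 is a glycoprotein anchored in the membrane of fibroblasts and mesenchymal stem cells.

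The E-box is shown first because it links the factors to the genes described further on. RefSeq promoter windows (build GRCh38.p14, of which the 250 bases before each start were searched for CAGGTG and its reverse complement CACCTG) were found for 5 of the 10 genes, ZEB1, ZEB2, TWIST2, PRRX1 and VIM. The motif was present in 2 of their 11 windows (18.2%), both of ZEB1, against 17.5% of 35116 windows of all genes. The windows below lie before the annotated exons of their gene, ZEB1 at chr10:31318167-31318416 and VIM at chr10:17227991-17228240, both on the plus strand. Capitals mark the E-box, of which the ZEB1 window holds 1 and the VIM window 0.
ZEB1: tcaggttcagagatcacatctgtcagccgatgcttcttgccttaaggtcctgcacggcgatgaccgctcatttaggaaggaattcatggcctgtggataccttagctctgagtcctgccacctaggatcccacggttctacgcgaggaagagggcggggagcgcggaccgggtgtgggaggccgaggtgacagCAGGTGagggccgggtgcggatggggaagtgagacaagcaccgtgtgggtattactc
VIM: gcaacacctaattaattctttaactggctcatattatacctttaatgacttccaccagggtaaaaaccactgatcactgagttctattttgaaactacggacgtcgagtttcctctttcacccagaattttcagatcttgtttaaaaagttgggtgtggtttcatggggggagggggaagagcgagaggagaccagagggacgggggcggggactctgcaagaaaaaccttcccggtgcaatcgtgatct

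SNHG15 itself had 34450 counts in the library labelled as overexpressing it and 466 in the vector control, a ratio of 85.6 (78.1 to 94.0). The library totals were 16570496 counts for SNHG15 and 20799017 for the vector. Counts were scaled to the library total as CPM, with TMM factors, and 12934 genes had a mean of at least 1 CPM, among them all 10 genes described here. The median gene compared had 284 and 315 counts. The epithelial cadherin gene CDH1 was near the floor, at 12 and 11 counts, while the luminal factor GATA3 had 1125 and 1171, a scaled ratio of 1.11 (1.02 to 1.21). The luminal keratin KRT18 was lower. The summed luminal markers were at 794.1 CPM against 1296 CPM, most of it KRT18 (702.3 CPM against 1199.6 CPM). Below a mean of 1 CPM, the luminal markers KRT19 had 0 counts against 23 and FOXA1 6 counts against 1. Markers of other cell types were read as well. Basal markers were divided, with KRT14 lower at 28 counts against 302, KRT5 higher at 27 counts against 7 but below a mean of 1 CPM (4.47, 1.90 to 12.1), and EGFR at 0.871. CD68 and CD14 (myeloid cells) and TEK (endothelium) were lower in the SNHG15 library, and of 6 haematopoietic markers 4, including PTPRC, were not analysed here. The endothelial reading rests on TEK alone, at 3 counts against 74. KDR had 1 count in each library, and the other endothelial markers were not analysed here. The summed level of the haematopoietic markers was 11.6 CPM against 36.7 CPM in the vector library, that of the endothelial markers 0.232 CPM against 3.75 CPM, and that of the neural markers 324.2 CPM against 173.0 CPM, most of it TUBB3 (1.90, 1.82 to 1.98), with SYP at 1.35. The part of these in the results below was not tested.

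The 4 genes THY1, FOXC2, TWIST1 and ZEB1 were lower in the SNHG15 library by at least 1.5-fold with an interval that excluded 1, and 0 of the 10 were higher by that rule. Among all genes compared, 12.2% were lower and 13.3% higher by the same rule. Vimentin itself was level between the libraries at a ratio of 1.002. SNAI1, SNAI2, PRRX1 and ZEB2 lay above 1, at 1.09, 1.25, 1.34 and 1.44, and TWIST2 was 1.44-fold lower, all short of 1.5-fold. The median log2 ratio of the 10 genes was −0.26, against 0.02 over all genes compared, and the genes had been picked with earlier results of these data known. By the stricter rule of a whole interval beyond 2-fold, 0 of the 10 were called in either direction, where 2.2% of all genes were higher and 2.45% lower. Among the 10, 0 carried a call in the authors' deposited table, against 8.15% of its genes. Its 1551 calls were the genes with at least a 2-fold change and an adjusted p of at most 0.05. In the authors' deposited table from edgeR, THY1 (log2 ratio −0.89, adjusted p = 4.16e-05), FOXC2 (−0.84, 0.0161) and TWIST1 (−0.63, 0.0075) met the second condition and missed the first. Those p-values come from 1 library per group, so they rest on a variation that these libraries cannot supply.

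**Figure D1:**
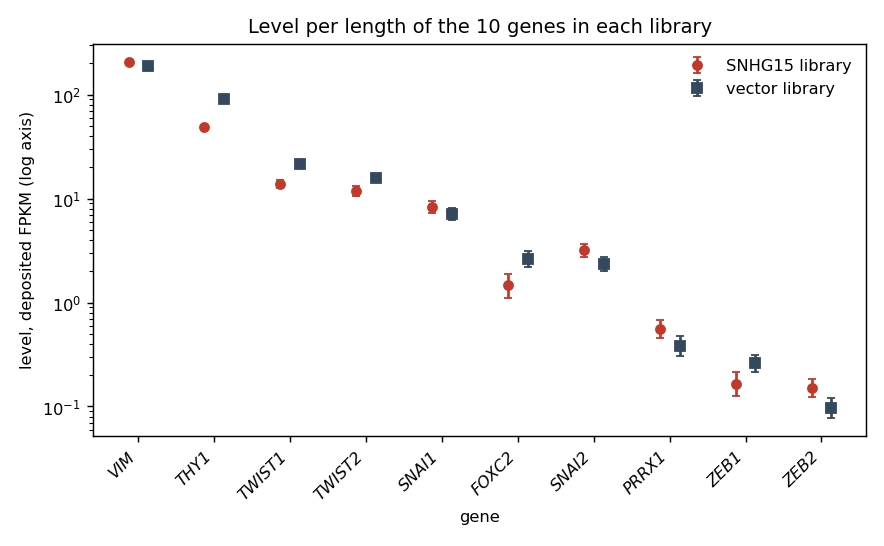
Deposited FPKM (log axis) of each of the 10 genes in the SNHG15 library (circles) and the vector library (squares), with bars for exact Poisson 95% intervals. VIM lay at 204.9 and 188.6 FPKM, and ZEB1 and ZEB2 lay below 0.3 FPKM in both libraries.

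Levels per length were compared on the deposited FPKM scale. VIM led in both libraries, at 204.9 FPKM in the SNHG15 library and 188.6 FPKM in the vector library, where it ranked 160 and 176 among 19029 genes. THY1 came next, at 49.1 FPKM and 90.8 FPKM. TWIST1 had 13.8 FPKM in the SNHG15 library and 21.4 FPKM in the vector library. Among the factors the TWIST genes stood highest, and SNAI1 followed at 8.38 FPKM and 7.10 FPKM.

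SNAI2 had 3.18 FPKM (95% interval 2.75 to 3.66) in the SNHG15 library and 2.35 FPKM (2.03 to 2.72) in the vector library. FOXC2 had 1.46 FPKM (1.12 to 1.88) and 2.62 FPKM (2.20 to 3.10), so the order of these neighbours differed between libraries and their vector intervals overlapped. PRRX1 was low, at 0.558 FPKM and 0.383 FPKM. ZEB1 had 0.166 FPKM (0.125 to 0.216) in the SNHG15 library, which overlapped ZEB2 at 0.151 FPKM (0.123 to 0.183). In the vector library ZEB1 had 0.260 FPKM (0.213 to 0.313) and ZEB2 0.0964 FPKM (0.0767 to 0.120). ZEB1 ranked 14358 and 12726 of 19029 genes, so its message was scarce in both libraries. BT549 is usually described as a line with ample ZEB1, and the libraries are taken here as labelled.

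The scale matters for that order. The length behind the deposited FPKM exceeded the union of annotated exons by 2.31 times for ZEB1 and 1.97 times for VIM, and equalled it for SNAI1 and TWIST2. Per kilobase of exon union, ZEB1 was at 0.369 CPM and 0.625 CPM, PRRX1 at 0.710 CPM and 0.528 CPM, and VIM at 387.3 CPM and 386.5 CPM. ZEB1 then lay above PRRX1 in the vector library, and SNAI2 above FOXC2 in both. Summed over the 8 factors, FPKM was 39.6 in the SNHG15 library and 49.99 with the vector. The TWIST genes made up 64.9% of that sum against 74.4%, the SNAI genes 29.2% against 18.9% and the ZEB genes 0.799% against 0.712%.

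**Figure D2:**
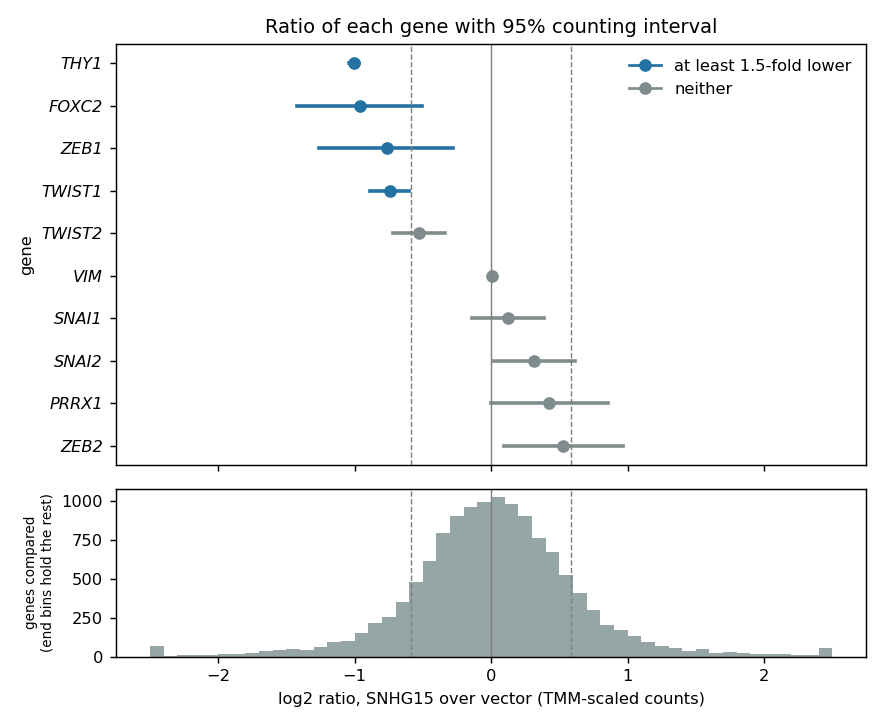
Above, the ratio of TMM-scaled counts (log2 axis, SNHG15 over vector) of each gene with its exact 95% counting interval, blue where at least 1.5-fold lower; below, the distribution over the 12934 genes compared, with dashed lines at 1.5-fold and the end bins holding all values beyond the axis. THY1, FOXC2, ZEB1 and TWIST1 lie left of the dashed line at 1.5-fold lower, and VIM lies at 1.002.

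TWIST1 (ENSG00000122691, hg38 chr7:19020991-19117672, minus strand) had 627 counts with SNHG15 and 1215 with the vector. Scaled, these were 36.3 CPM and 60.8 CPM, 1.67-fold lower with SNHG15 (95% interval 1.52 to 1.85). TWIST1 is needed for mesenchyme of the head and is the factor of this set with the most counts. Its call was lost with the trend of ratios on transcript GC content removed (log2 ratio −0.58) and with the median of its chromosomal neighbours subtracted (−0.45).

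Its relative TWIST2 (ENSG00000233608, chr2:238848032-238910543, plus strand) had 370 counts and 618 counts. At 21.4 CPM against 30.9 CPM the level was 1.44-fold lower (1.27 to 1.65), just short of 1.5-fold, so that TWIST2 fell outside the call and TWIST1 inside it. Within the pair, TWIST1 made up 62.9% of counts with SNHG15 (59.8% to 65.9%, Clopper-Pearson) and 66.3% with the vector (64.1% to 68.4%). The odds of TWIST1 over TWIST2 differed by a ratio of 0.862 (0.732 to 1.02) whose interval included 1, and this share does not depend on scaling between libraries.

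ZEB1 (ENSG00000148516, chr10:31318495-31529814, plus strand) rested on 55 counts with SNHG15 and 108 with the vector. The level of 3.19 CPM against 5.41 CPM was 1.70-fold lower (1.21 to 2.39). At these counts the interval spans from a small to a more than 2-fold difference. On the FPKM scale, where a pseudocount of 1 or 0.1 is not small beside the level, the log2 ratio was −0.11 or −0.44 and the call was lost.

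ZEB2 (ENSG00000169554, chr2:144384081-144524583, minus strand) stood on the other side, at 102 counts and 82 counts, or 5.91 CPM against 4.11 CPM. Its ratio of 1.44 (1.07 to 1.95) excluded 1 but did not reach 1.5-fold, and with scaling by library totals its log2 ratio was 0.63 and it was called higher. ZEB1 took 35.0% of the counts of the pair in the SNHG15 library (27.6% to 43.0%) and 56.8% in the vector library (49.5% to 64.0%). The odds of ZEB1 over ZEB2 were lower with SNHG15 by a ratio of 0.410 (0.258 to 0.648). The paralogs thus lay in opposite directions. ZEB2 had more counts in the SNHG15 library and ZEB1 in the vector library, where the interval of the share included an even split. Counts are not corrected for length. Per kilobase of exon union, ZEB1 lay above ZEB2 in both libraries, at 0.369 CPM against 0.236 CPM with SNHG15 and 0.625 CPM against 0.164 CPM with the vector.

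SNAI1 (ENSG00000124216, chr20:49982999-49988886, plus strand), the factor Snail, had 234 counts with SNHG15 and 249 with the vector. Its ratio was 1.09 (0.906 to 1.31). SNAI2 (ENSG00000019549, chr8:48917690-48921740, minus strand), the factor Slug, had 198 counts and 184 counts, with a ratio of 1.25 (1.01 to 1.53). Neither reached 1.5-fold, and a difference above 1.31-fold for SNAI1 or 1.53-fold for SNAI2 lay outside the counting interval. The share of SNAI1 in the pair was 54.2% (49.3% to 58.9%) and 57.5% (52.7% to 62.2%), with an odds ratio of 0.873 (0.662 to 1.15).

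**Figure D3:**
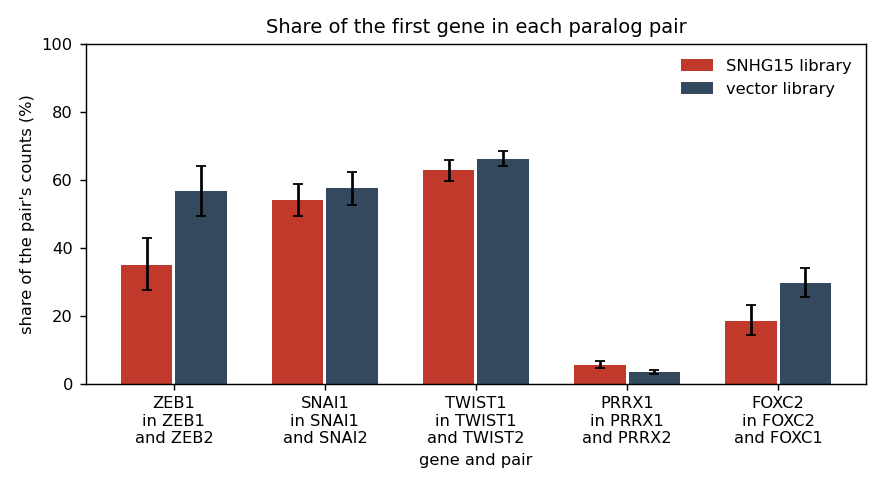
Share of the first gene in the counts of each paralog pair (percent, bars from 0) in the SNHG15 library (red) and the vector library (dark), with Clopper-Pearson 95% intervals. The ZEB1 share is 35.0% against 56.8%, while the intervals of the SNAI1 and TWIST1 shares overlap between libraries.

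PRRX1 (ENSG00000116132, chr1:170662728-170739419, plus strand) had 101 counts with SNHG15 and 87 with the vector. The ratio was 1.34 (0.999 to 1.81), with an interval that included 1. Its paralog PRRX2 was far more abundant, with 1691 counts and 2469 counts, a ratio of 0.793 (0.745 to 0.844). PRRX1 therefore made up 5.64% of the pair in the SNHG15 library (4.61% to 6.81%) and 3.40% in the vector library (2.74% to 4.18%).

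FOXC2 (ENSG00000176692, chr16:86567251-86569728, plus strand) had 60 counts and 135 counts. The level of 3.48 CPM against 6.76 CPM was 1.94-fold lower (1.42 to 2.68). The call was lost on the FPKM scale with a pseudocount of 1 (log2 ratio −0.56). Its paralog FOXC1 was at 264 counts and 320 counts with a ratio of 0.955 (0.808 to 1.13). The share of FOXC2 in the pair was 18.5% (14.4% to 23.2%) in the SNHG15 library and 29.7% (25.5% to 34.1%) in the vector library, an odds ratio of 0.539 (0.375 to 0.770).

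VIM (ENSG00000026025, chr10:17228259-17237593, plus strand) had 34469 counts with SNHG15 and 39817 with the vector. Scaled, these were 1998 CPM and 1993 CPM, a ratio of 1.002 (0.988 to 1.02). The message took 0.208% and 0.191% of all counts. Because the counts are deep, the scaling sets the value, and the log2 ratio ran from −0.16 with the neighbour median subtracted to 0.12 by library totals.

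THY1 (ENSG00000154096, chr11:119417378-119424985, minus strand) had 8673 counts against 20119, with 502.7 CPM and 1007 CPM after scaling. It was 2.004-fold lower (1.95 to 2.06), with the narrowest interval among the 4 lower genes. Its log2 ratio was −1.003 and stayed below −0.76 under every alternative, among them the GC trend removed (−0.83) and library totals (−0.89). Since RNA came from whole cultures, fewer cells with a message and less message per cell cannot be told apart, here and for the genes above.

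Genes transcribed across the members were read beside them, because the sources used here give no strandedness. ZEB1-AS1, which overlaps ZEB1 on the opposite strand, had 22 counts and 49 counts, a ratio of 0.520 (0.299 to 0.876) beside 0.590 for ZEB1. The pseudogene SPTLC1P1 inside ZEB1 had 5 counts and 14 counts. VIM-AS1 had 16 counts and 25 counts (0.741, 0.370 to 1.44), ZEB2-AS1 1 count and 2 counts, and THY1-AS1 3 counts in each library. USP2-AS1, which overlaps THY1, had 27 counts and 37 counts. FOXC2-AS1 had 0 counts, which allows up to 0.174 CPM, against 5 counts. Overlap was judged on whole gene spans, of which only a part may be shared. In a shared part, reads of opposite-strand genes cannot be told apart without strand, and strand would not separate SPTLC1P1 from ZEB1. Beside VIM and THY1 the counts of the overlapping genes are small.

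**Figure D4:**
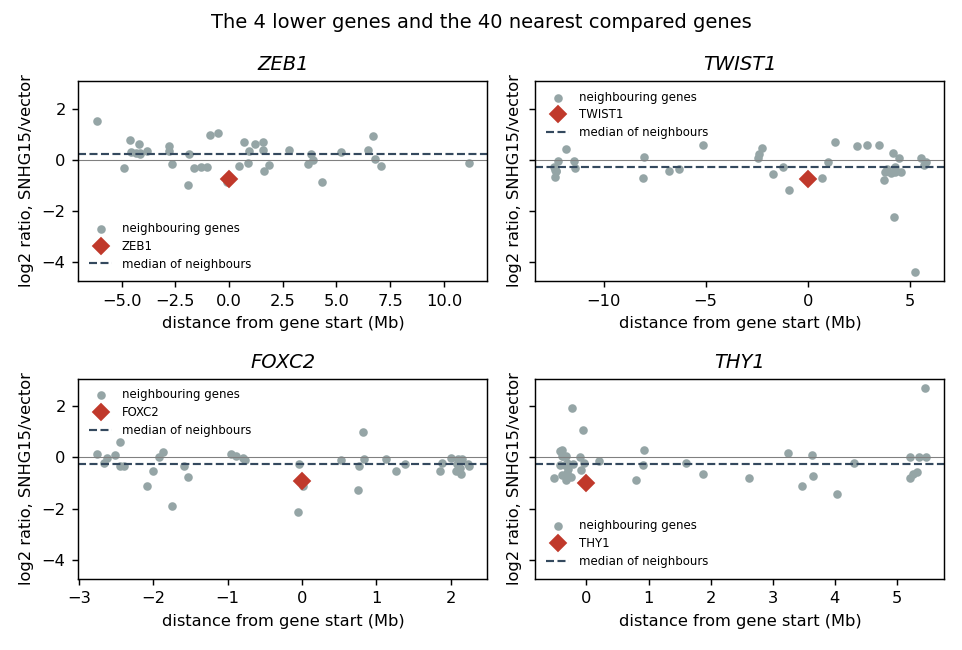
Log2 ratio (SNHG15 over vector) of the 40 nearest compared genes (grey) by distance of their start from that of ZEB1, TWIST1, FOXC2 and THY1 (red diamonds), with the neighbours' median dashed. Neighbours of TWIST1, FOXC2 and THY1 have medians below 0, and those of ZEB1 a median of 0.24.

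The position of the 4 lower genes was compared with the 20 compared genes on each side, which reached as far as 12430 kb from TWIST1 and 2759 kb from FOXC2. FOXC2 sits in a cluster of forkhead genes with FOXL1 and FOXF1, factors of gut and lung mesenchyme, and all 3 were lower. FOXL1, which starts 9117 bases away, had 45 counts and 115 counts (ratio 0.453, 0.314 to 0.645). FOXF1 had 40 counts and 210 counts (0.221, 0.153 to 0.310), while MTHFSD, between FOXF1 and FOXC2, lay at 0.828 (0.708 to 0.967). Of the 40 neighbours of FOXC2, 32 had a log2 ratio below 0, with a median of −0.25, against 0.02 over all genes compared. By the 1.5-fold rule 7 of the 40 were lower and 2 higher.

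TWIST1 had a lower gene on each side. The nearest compared genes on either side were TWISTNB, an RNA polymerase I subunit gene that starts 674471 bases away, at 65 counts and 125 counts (0.602, 0.439 to 0.819), and HDAC9, a histone deacetylase gene, at 12 counts and 34 counts (0.409, 0.193 to 0.809). Over 40 neighbours of TWIST1 the median was −0.29, with 27 below 0. By the 1.5-fold rule 7 of the 40 were lower and 2 higher, beside 12.2% and 13.3% of all genes compared. For THY1 the median was −0.24 with 12 of 40 lower and 3 higher by the 1.5-fold rule, and the gene lay 0.77 below it. The 40 neighbours of ZEB1, reaching 11157 kb, had a median of 0.24 with 8 higher and 3 lower, and ZEB1 lay 0.99 below that median. The nearest of them, ZEB1-AS1, overlaps ZEB1 and was lower too (0.520, 0.299 to 0.876). PRRX1 was close to its neighbours, whose median was 0.34. The part of position in the differences was not tested.

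**Figure D5:**
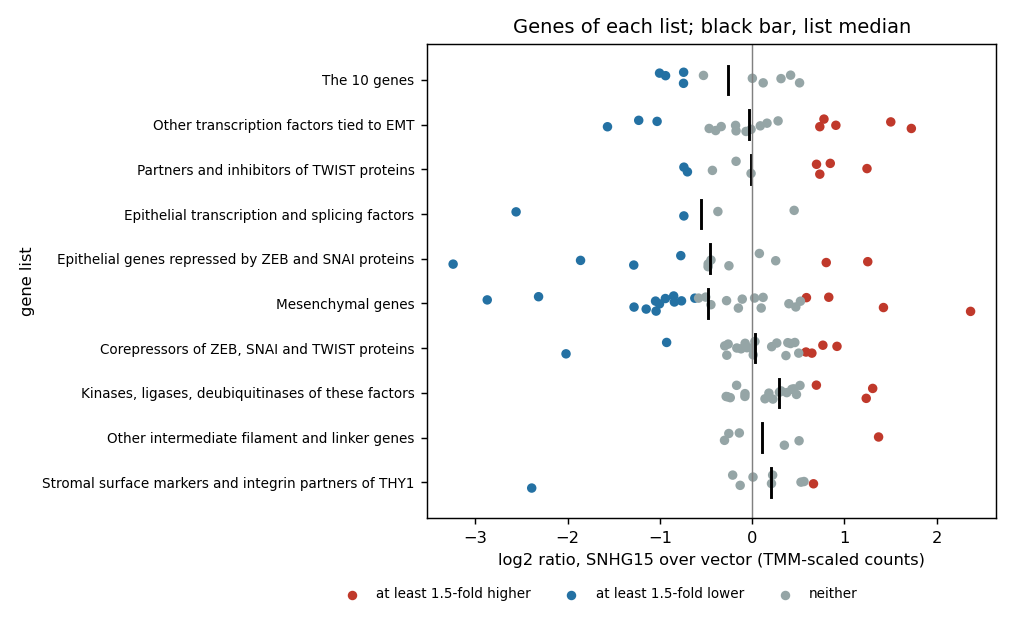
Log2 ratio (SNHG15 over vector) of each gene with a mean of at least 1 CPM in the 10 genes and in 9 related lists, coloured by the 1.5-fold rule, with black bars at list medians. Medians lie at −0.47 for mesenchymal genes and −0.46 for epithelial genes, and the mesenchymal list holds 12 lower and 4 higher genes.

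Other transcription factors tied to the transition were divided. Of 18 compared, 5 were higher, 3 lower and 10 neither, with a median log2 ratio of −0.04. By the same rule 13.3% of all genes compared were higher and 12.2% lower, shares to be read beside every list that follows. GATA6, an endoderm and mesoderm factor, was 2.35-fold lower (2.11 to 2.61) and the T-box repressor TBX2 3.02-fold lower (2.26 to 4.10). HMGA2, a chromatin protein that acts upstream of SNAI and TWIST genes, was 2.07-fold lower at 60 counts and 144 counts. Higher genes included RUNX2 at a ratio of 2.94 (1.99 to 4.43), SOX4 at 1.72, TCF12 at 1.69 and FOXD3 at 3.86 on 30 counts and 9 counts. ETS1 lay at 0.724 (0.660 to 0.794), short of the rule.

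TWIST proteins pair with E proteins, and ID proteins take those partners away. Of 9 such genes 4 were higher, 2 lower and 3 neither. The abundant inhibitors were lower, ID3 at 1943 CPM against 3157 CPM (ratio 0.615, 0.607 to 0.624) and ID1 at 831.1 CPM against 1387 CPM (0.599, 0.587 to 0.611). The scarcer inhibitors ID2 and ID4 were higher, at ratios of 1.63 (1.38 to 1.92) and 2.38 (2.05 to 2.77), as were HAND2 (1.86) and TCF12. TCF3, the most abundant E protein gene here, lay at 0.887 (0.839 to 0.937). The summed level of the 9 genes was 2974 CPM against 4733 CPM, with ID1 and ID3 carrying most of it.

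Of 28 epithelial genes described as targets of ZEB and SNAI proteins, 12 reached a mean of 1 CPM, of which 2 were higher, 4 lower and 6 neither, with a median log2 ratio of −0.46. The tight junction gene CLDN7 had 2 counts against 40, a ratio of 0.0579 (0.00678 to 0.223). LLGL2, a polarity protein gene, was 3.74-fold lower (2.66 to 5.37), the plakophilin PKP3 2.44-fold lower (2.13 to 2.81) and keratin KRT18, the most abundant of the list, 1.71-fold lower (1.67 to 1.75) at 702.3 CPM against 1199.6 CPM. Its partner keratin KRT8 lay at 0.718 (0.638 to 0.809) and the claudin CLDN1 at 1.06 (0.958 to 1.16). JUP, the junction protein plakoglobin, went the other way at 2155 counts and 1045 counts (2.39, 2.22 to 2.57), and the mucin MUC1 lay at 1.76 (1.41 to 2.19). CDH1 had a ratio of 1.26 (0.510 to 3.16) below the level filter, so a difference was not detectable at this depth.

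Among the 12 epithelial genes compared, and of those with a promoter window, CLDN7 and JUP lay farthest apart, and both hold the E-box in one of their windows. Across the list, 12 of 22 windows (54.5%) of 16 genes held it, against the 17.5% of all windows, and some windows of 1 gene overlap. A further window of CLDN7 and of JUP held none. The list consists of genes known as targets, and a match shows letters, not binding. The CLDN7 window (chr17, minus strand) has 4 E-boxes, starting 174, 135, 20 and 9 bases before the start of transcription, and the JUP window (chr17, minus strand) has 2, at 54 and 43 bases. Capitals mark the E-box, with the bases beside it in lower case.
CLDN7, 174 bases before the start: cctcctCACCTGggcaag
CLDN7, 135 bases before the start: ccggttCAGGTGagtgtc
CLDN7, 20 bases before the start: tatactCAGGTGcgcccc
CLDN7, 9 bases before the start: gcgcccCACCTGtcc
JUP, 54 bases before the start: tggcccCACCTGccgagc
JUP, 43 bases before the start: gccgagCAGGTGagcgca

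Factors that hold the epithelial state were mostly below the filter, and 4 of 15 were compared. ELF3, an epithelial ETS factor, had 8 counts against 65 (ratio 0.142, 0.0590 to 0.298), and GRHL3, a grainyhead factor of surface epithelium, 36 counts against 71 (0.587, 0.382 to 0.889). KLF4 and KLF5 were neither, at 1.38 and 0.765. Of the microRNA host genes listed, MIR34AHG had 4 counts and 6 counts and the others, including the host of the miR-200c cluster that represses ZEB messages, were not analysed here.

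Of 28 mesenchymal genes, 12 were lower, 4 higher and 12 neither, with a median log2 ratio of −0.47. Among all genes compared, 12.2% were lower and 13.3% higher. The collagen I genes were lower, COL1A2 by 7.33-fold (6.81 to 7.89) at 46.4 CPM against 340.1 CPM and COL1A1 by 2.07-fold (2.02 to 2.11). Fibronectin, FN1, was 1.80-fold lower (1.76 to 1.84) and the cadherin CDH11 2.43-fold lower (2.15 to 2.76). The fibronectin receptor subunit ITGA5 was 2.22-fold lower (2.16 to 2.27), close to THY1 in size, and periostin, POSTN, 4.99-fold lower (4.54 to 5.48). The collagen gene COL3A1 lay at 1.019 (1.002 to 1.037), level like VIM, and COL6A1 at 1.44 (1.41 to 1.46). N-cadherin, CDH2, an EMT marker that is gained as E-cadherin is lost, had 360 counts against 79 (5.28, 4.12 to 6.82). The other higher genes were the matrix genes TNC (2.68, 2.56 to 2.82) and SPARC (1.78, 1.74 to 1.82) and smooth muscle actin, ACTA2 (1.505, 1.43 to 1.59).

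Of 9 surface molecules that share cells or partners with THY1, 7 were neither, 1 higher and 1 lower, with a median log2 ratio of 0.21. Over all genes compared, 13.3% were higher and 12.2% lower. Endoglin, ENG, a TGF-beta co-receptor and stromal stem cell marker beside THY1, was 5.24-fold lower (4.92 to 5.59), at 63.5 CPM against 332.7 CPM. The ectonucleotidase NT5E, another marker of those cells, was higher at 1.59 (1.47 to 1.71). CD44 lay at 1.17 (1.133 to 1.202) and the THY1-binding partners ITGB5 and SDC4 at 1.16 and 1.48. The filament and linker genes listed beside vimentin were neither in 5 of 6 cases, with a median log2 ratio of 0.11. Plectin, PLEC, lay at 0.909, LMNA at 0.840 and LMNB2 at 0.813, and the filament genes SYNM and INA at 1.43 and 1.28. LMNB1, a nuclear lamina gene, was higher at 2.59 (2.37 to 2.83).

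Of 23 corepressors used by these factors, 17 were neither, 4 higher and 2 lower, with a median log2 ratio of 0.03. Over all genes compared, 13.3% were higher and 12.2% lower. The lysyl oxidase LOXL2, which stabilises Snail, was abundant at 3049 CPM and 3649 CPM (ratio 0.836, 0.826 to 0.845). Its relative LOXL3 had 8 counts against 44 (0.210, 0.0856 to 0.452), and the LIM protein WTIP was 1.91-fold lower. The related LIM protein AJUBA, a Snail corepressor, was higher at 1.90 (1.71 to 2.11), as were RCOR1 at 1.71, the histone methyltransferase SUV39H1 at 1.57 and HDAC2 at 1.502. SMARCA4 and EHMT2 lay at 0.949 and 0.814.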

How the data were processed

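RNA-seq of 2 BT549 libraries was analysed, 1 per group, with groups taken from the genotype in the labels. The authors deposited whole-number counts per gene and FPKM, per the file headers, with a log2 ratio and p-values from edgeR, per the table's name. The deposited log2 ratio and p-values are quoted only as the authors' own. Submitters' processing notes name the build hg38. The aligner, counter, annotation and strandedness are not given in the sources used here. Totals were 16570496 and 20799017 counts.

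TMM factors came from edgeR 4.0.16 in R 4.3.3 (1.04 for SNHG15, 0.960 for vector). Ratios have exact conditional-binomial 95% intervals. Reads are not independent molecules, so intervals and the floor of 3 counts cover counting error only. Log2 ratios used a prior count of 2. A call needed an interval clear of 1 and a difference of at least 1.5-fold. Lists are described by counts and medians, with no test. The ratio, its interval and the call rule were tested on simulated Poisson counts. These held no variation between cultures or libraries, so the check covers counting error only. Lengths and GC content came from GENCODE 29, which matched 18903 identifiers. E-boxes were sought in RefSeq windows with Python 3.11.15.

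The members and lists were chosen with earlier results of these data known. Named list genes were those with the whole interval beyond 2-fold and up to 3 others by abundance. SPARC, ACTA2, KRT5, KRT19, FOXA1, KDR, SYNM, INA, FOXC1, HMGA2, RUNX2, SOX4, TCF12, FOXD3, ID2, HAND2, MUC1, CDH1, NT5E, WTIP, AJUBA, RCOR1, SUV39H1, HDAC2, USP37, PPM1A, FBXO45, the PRRX1 and FOXC2 pair shares and the neighbouring genes were added or named after their values were seen. CDH11, LOXL2, SDC4, SMARCA4, CD68, MUC1, TUBB3, LMNB2 and ZEB1 overlap a gene of the same strand, and KRT18, KRT8, CLDN7, CTDSP1, SIAH2, ACTA2, ENG, TBX2, HMGA2, RUNX2, FOXD3, GRHL3, LOXL3, SUV39H1, HDAC2, FBXO45, FOXC2, THY1, VIM and ZEB2 one of the opposite strand, so their reads may be divided. KRT8 and KRT18 also have pseudogene copies. As alternatives, scaling used size factors of DESeq2 1.42.0 or library totals, with other filters, prior counts and call rules, FPKM with pseudocounts of 1 and 0.1, GC trend removal (lowess, span 0.5) and subtraction of the median of 20 genes on each side.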

Additional observations from a re-analysis of the deposited data

How the results depend on the processing

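The 4 lower genes were 4 with DESeq2 size factors, library totals, no filter and the point ratio, and 3 with a minimum of 5 CPM (without ZEB1), the GC trend removed or the neighbour median subtracted (without TWIST1), or FPKM with a pseudocount of 0.1 (without ZEB1). They were 2, THY1 and TWIST1, with FPKM and a pseudocount of 1, and 0 with the whole interval beyond 2-fold. The count of higher genes was 1, ZEB2, with library totals and 0 otherwise. The median over all genes compared moved up by 0.12 (log2) with library totals and by −0.04 with DESeq2 size factors. None of the 4 lower genes changed direction under these alternatives, and VIM, which was not called, ran from −0.16 to 0.12. Among log2 ratios of single genes under the alternatives, 82 stayed within their counting interval and 17 did not. The 82 include the filter settings, which cannot change a ratio. Most of the 17 were of VIM and THY1, whose deep counts give narrow intervals. By share of FPKM, ZEB1 made up 52.4% of its pair with SNHG15 and 72.9% with the vector, SNAI1 72.5% and 75.1%, and TWIST1 53.8% and 57.4%. For the other transcription factors, TWIST partners and corepressors the list median had both signs across alternatives (−0.08 to 0.08, −0.05 to 0.10 and −0.01 to 0.18). No paired analysis was possible because each group had 1 library. Depth limits ZEB1, ZEB2, PRRX1 and FOXC2, which had at most 135 counts, and CLDN7, ELF3 and LOXL3, which had fewer than 10 in the SNHG15 library. CLDN7, ELF3 and LOXL3 were above 1 CPM in the vector library alone, and FOXD3 in the SNHG15 library alone.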

Other observations

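Enzymes that mark, degrade or spare SNAI, TWIST and ZEB proteins were compared too. Of 19, 3 were higher, 0 lower and 16 neither, where 13.3% of all genes compared were higher and 12.2% lower. The median log2 ratio was 0.30 (0.13 to 0.41 across alternatives), against 0.02 over all genes. With library totals, which gave the 0.41, the median over all genes was 0.13. The deubiquitinase gene USP37 lay at a ratio of 2.58 (1.66 to 4.07), on 69 counts and 31 counts. The phosphatase gene PPM1A lay at 2.39 (1.86 to 3.08) and FBXO45, a ubiquitin ligase subunit gene, at 1.63 (1.32 to 2.01). The abundant members CTDSP1 and CSNK2A1 lay at 0.831 and 0.849, and SIAH2 at 1.30. Messages say nothing of how stable the proteins of the factors are, which was not measured.

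Near VIM, TRDMT1, an RNA methyltransferase gene, had 31 counts against 7 (ratio 5.13, 2.21 to 13.8), while VIM was level. Near TWIST2, the histone deacetylase gene HDAC4 was at 625 counts and 362 counts (1.999, 1.75 to 2.28), in the opposite direction to TWIST2. Farther from TWIST1, at 5263172 bases, the neuropeptide gene NPY had 0 counts, which allows up to 0.174 CPM, against 43. These genes were singled out after their values were seen.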
